A study of Mus musculus with 5 samples.

Results

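The endoplasmic reticulum (ER) stress response was followed through 32 genes, all present among the 55291 gene symbols of the counted libraries. They were chosen as a list of symbols by their known roles, but with earlier results of these data known, as were the further lists below. Shares of a list beside those of all genes are therefore a description. They were divided by branch into 12 genes of the ATF6 branch with the ER chaperones, 12 genes of the IRE1-XBP1 branch with ER-associated degradation, and 8 genes of the PERK-ATF4 branch. RNA of mouse bone marrow cells, which the labels name monocytes, was sequenced from 3 wild-type samples, numbered 1, 2 and 3, and from 2 samples mutant for Tet2, numbered 2 and 3. Tet2 encodes a dioxygenase that acts on methylated cytosines and is a frequent target of mutation in blood cancers. The sources used here do not give the allele, strain, age, sex or treatment of the mice, nor how cells were isolated or whether the samples are separate animals. By the sex-linked transcripts given below, wild-type replicate 3 did not come from the same source as wild-type replicates 1 and 2. In CPM, defined below, mutant replicates 2 and 3 held 14.7 and 1.22 of the Y-linked gene Ddx3y. Their summed erythroid markers stood at 17173 and 2445 CPM. Wild-type replicates 1 and 2 held 39.7 and 1769 CPM of the antibody transcript Igha, and 136 and 1073 CPM of Jchain. With such differences neither pair can be repeat libraries of 1 RNA preparation. Whether either pair came from 1 animal is not known, and the p-values cover the spread between the samples as they are.

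Proteins that enter the ER are folded by chaperones and by enzymes that form disulfide bonds, and misfolded ones are returned to the cytosol and destroyed. A set of membrane proteins senses an overload. ATF6 is cleaved into a transcription factor that turns on chaperone genes, IRE1 (gene Ern1) splices the messenger of Xbp1 so that it encodes an active factor, and PERK (gene Eif2ak3) slows translation while favouring that of ATF4, which turns on amino acid supply genes and Ddit3. Many target genes answer to more than 1 branch, so the division is by their best known regulator. Plasma cells and pancreatic acinar cells, which secrete large amounts of protein, express many of these genes strongly.

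Library totals ran from 17459808 counts (Tet2 mutant replicate 2) to 72414875 counts (wild-type replicate 2), and every one of the 32 genes had at least 20 counts in each library and passed the filter on low counts. Levels are given as CPM, counts scaled to a common library size, after adjustment by TMM, which scales libraries so that most genes keep their level. The TMM factors were 1.14 to 1.17 in the wild type and 0.72 and 0.90 in the mutants, and their effect is described below. Genes with a count numbered 24532, 25612 and 26207 in the wild type, but 18047 and 17944 in the mutants. Tet2 mutant replicate 3 had the fewest although its total was 60508381 counts. The 8 monocyte markers, of which 3 were called higher (Csf1r among them) and 1 lower, summed to 1240 to 1301 CPM in the wild type against 2130 and 1190 CPM in the mutant pair, but 14 neutrophil and promyelocyte markers together stood far higher, at 50222 to 62099 CPM in wild-type libraries versus 55256 and 24083 CPM in the mutant pair. The mutant libraries also held more RNA of 17 measured pancreatic acinar markers (42.6 to 59.5 CPM in the wild type, 924 and 2205 CPM in the mutant pair) and 10 macrophage markers (720 to 964 CPM against 6094 and 4660 CPM). Xist stood at 27.4 CPM in Tet2 mutant replicate 2 beside 14.7 CPM of the Y-linked gene Ddx3y, whereas wild-type replicates 1 and 2 held Ddx3y with little Xist, and wild-type replicate 3 and Tet2 mutant replicate 3 mostly Xist. The part of these differences in the results was not tested. In such bulk samples, fewer cells of a type and less RNA per cell cannot be told apart. Tet2 itself did not pass the test (log2 fold change -0.04, adjusted p = 0.966), and its transcript level does not check a mutation.

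Of the 32 genes, 5 rose in the Tet2 mutant libraries and none fell (edgeR's quasi-likelihood test, Benjamini-Hochberg adjusted p under 0.05 over all 17062 tested genes). The 5 were Manf, Sdf2l1 and Pdia6 among the chaperone genes and Herpud1 and Derl2 among the genes of ER-associated degradation. They make up 15.6% of the list, beside 10.6% of all tested genes that rose, and 4.43% of all tested genes fell. At an unadjusted p under 0.05, 12 of the 32 genes were higher and 1, Canx, was lower, a share near the 39.2% of all tested genes at that p. DESeq2 called 9 of the 32 higher and 0 lower, beside 17.4% and 12.5% of all genes, and limma-voom 7 higher and 1 lower, beside 10.8% and 8%. Both mutant libraries lay above all wild-type libraries for 14 of the 32 genes (43.8%, against 22.9% of all tested genes) and below them for 2 (6.25%, against 33.3%). The median log2 fold change was 0.46 over the list and -0.07 over all tested genes. By branch the median was 0.80 for ATF6 and chaperones, 0.46 for IRE1-XBP1 and degradation, and -0.17 for PERK-ATF4, where no gene was called.

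**Figure D1:**
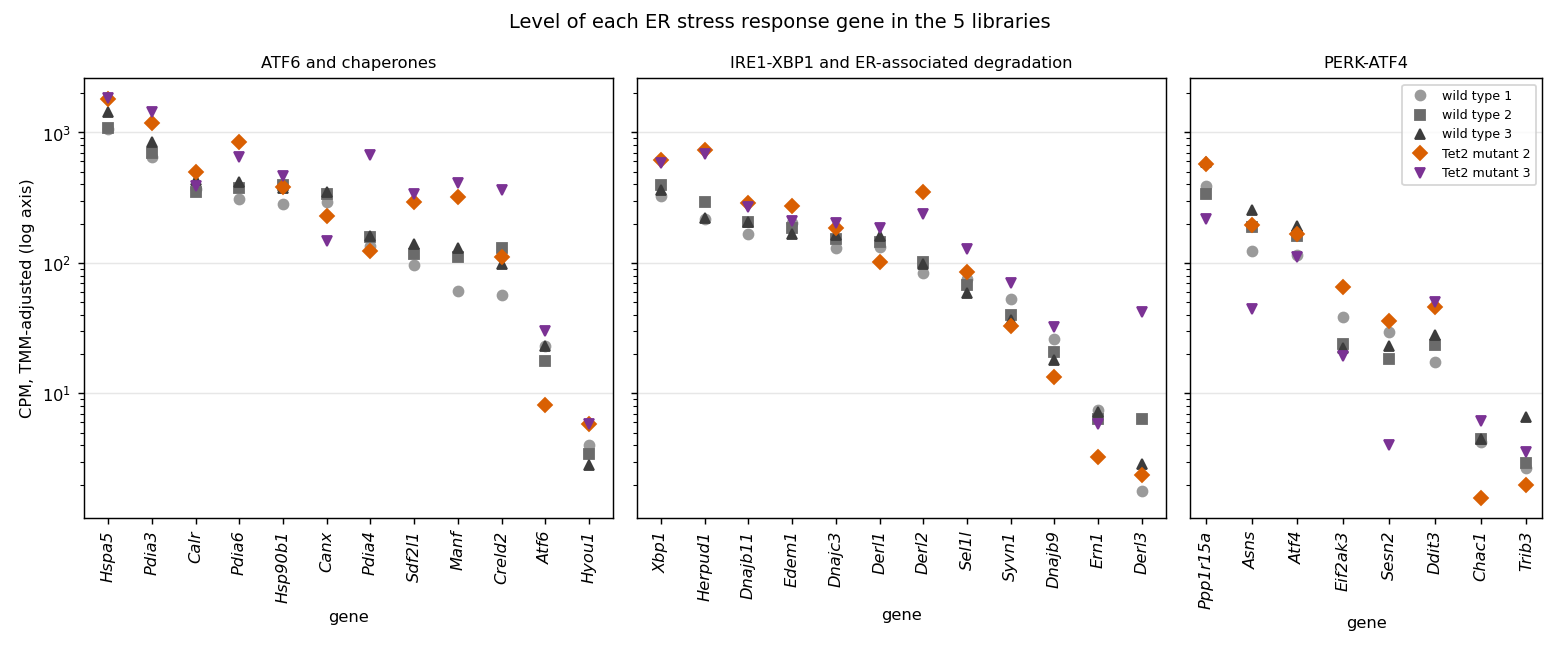
CPM of each gene (log axis) in the 3 wild-type (grey) and 2 Tet2 mutant (coloured) libraries, in 1 panel per branch with genes ordered by their wild-type mean. Manf, Sdf2l1, Pdia6, Herpud1 and Derl2 lie higher in both mutant libraries, while Pdia4, Creld2, Derl3, Asns and Sesn2 differ widely between the mutant libraries.

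Hspa5, which encodes BiP, the main Hsp70 chaperone of the ER lumen and the protein that holds the sensors inactive, was the most abundant of the 32 genes per length of exon in both genotypes, at means of 317 and 485 CPM per kb. It measured 1062, 1074 and 1438 CPM in the wild-type samples (always in the order 1, 2, 3) versus 1813 and 1825 CPM in the mutant pair (always in the order 2, 3). The groups did not overlap, but the difference (log2 fold change 0.61 ± 0.26 SE) did not pass (adjusted p = 0.128). Pdia3, a disulfide isomerase that works with calnexin and calreticulin on glycoproteins and also serves in the loading of MHC class I, came second per length. It stood at 649, 695 and 844 CPM in wild-type libraries versus 1173 and 1428 CPM in the mutant pair (log2 fold change 0.83 ± 0.25, adjusted p = 0.0633). Again both mutant libraries were higher than every wild-type library, but with total library size in place of TMM the groups overlapped for both genes. The call of Pdia3 depended on the method, since DESeq2 and limma-voom made it (adjusted p = 0.0409 and 0.0313), and total library size or the replicate block did not (adjusted p = 0.34 and 0.411).

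The 3 genes of this branch that rose encode small or specialised folding helpers. Manf (chromosome 9, 106838312 to 106891979 in GRCm38, minus strand), which encodes a secreted ER protein that binds BiP and protects cells from ER stress, was at 60.6, 112 and 131 CPM in wild-type libraries versus 319 and 407 CPM in the mutant pair. The wild-type mean was 101 ± 36.4 CPM (SD, n = 3) and the mutant mean 363 ± 61.9 CPM (SD, n = 2), a log2 fold change of 1.84 ± 0.35 (adjusted p = 0.0209). Sdf2l1 (chromosome 16, 17130138 to 17132383, minus strand), which keeps clients of BiP soluble, went from 96.6, 117 and 141 CPM to 294 and 340.3 CPM (log2 fold change 1.43 ± 0.25, adjusted p = 0.0167). Pdia6 (chromosome 12, 17266545 to 17284770, plus strand), a disulfide isomerase that also acts on IRE1, went from 309, 378 and 417 CPM to 843 and 647 CPM (log2 fold change 1.02 ± 0.26, adjusted p = 0.0431). For all 3 the lower mutant library exceeded the highest wild-type library by more than the range of the wild type. The call of Pdia6 was lost on leaving out any 1 wild-type library (adjusted p = 0.0623 to 0.0759) and with upper-quartile scaling, total library size or the replicate block, and that of Sdf2l1 without wild-type replicate 1 (adjusted p = 0.0538) and with the block (adjusted p = 0.0603), whereas Manf kept its call in all 13 alternatives.

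The lectin chaperones were not among the genes that rose. Canx, which encodes calnexin, the membrane lectin that retains glycoproteins until they fold, stood at 291, 339 and 347 CPM in wild-type libraries versus 228 and 147 CPM in the mutant pair. Both mutant libraries were below all wild-type libraries (log2 fold change -0.80 ± 0.28, adjusted p = 0.0855). The fall passed with upper-quartile scaling (adjusted p = 0.0243), total library size (adjusted p = 0.0163) and limma-voom (adjusted p = 0.047). Without Tet2 mutant replicate 2 the log2 fold change of Canx was -1.15, and without replicate 3 -0.52. Calr, its soluble partner calreticulin, was at 369, 352 and 430.4 CPM in wild-type libraries versus 498 and 391 CPM in the mutant pair, so that the groups overlapped with TMM (adjusted p = 0.535). With total library size both mutant libraries were below all wild-type libraries for Calr. Hsp90b1, the ER form of Hsp90, overlapped too, at 281, 395 and 377 CPM against 384 and 468 CPM (adjusted p = 0.44).

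Hyou1, an exchange factor for BiP, was low throughout, at 4.02, 3.43 and 2.81 CPM in wild-type libraries versus 5.78 and 5.80 CPM in the mutant pair (adjusted p = 0.367). Atf6 itself was at 23.1, 17.7 and 22.9 CPM in wild-type libraries versus 8.16 and 30.01 CPM in the mutant pair, on either side of the wild type. Its cleavage, like the activity of any of the sensors, is not seen in gene counts. The branch held 10 genes with a positive and 2 with a negative log2 fold change.

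Part of the promoters held a shared element. The ER stress response element, ERSE, was searched as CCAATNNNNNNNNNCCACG on both strands of the 300 bases that run from 250 before to 50 after the RefSeq start (GRCm38.p6), which were at hand for 28 of the 32 genes. It matched in 9 of the 28 (32.1%), against 0.119% of all 32851 promoters in the table. The 9 were Calr, Canx, Creld2, Hsp90b1, Hspa5 and Pdia6 of the chaperone branch and Derl3, Dnajc3 and Syvn1 of the degradation branch. The element was first described in promoters of such chaperone genes, so its presence is background, and a match is not evidence of binding in these cells. The related element ERSE-II, searched as ATTGGNCCACG, matched in Dnajb11 and Herpud1 (7.14%, against 0.0365% of all promoters). Stretches of 3 ERSE promoters are shown because Hspa5 is the classic case, Pdia6 rose and Canx had a negative log2 fold change, each read along the gene with the match in capitals, for Hspa5 (chr2:34771985-34772083, plus strand), Pdia6 (chr12:17266451-17266549, plus strand) and Canx (chr11:50325760-50325858, minus strand).
Hspa5: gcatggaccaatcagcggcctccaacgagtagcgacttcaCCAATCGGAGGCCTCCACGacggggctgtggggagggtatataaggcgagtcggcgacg
Pdia6: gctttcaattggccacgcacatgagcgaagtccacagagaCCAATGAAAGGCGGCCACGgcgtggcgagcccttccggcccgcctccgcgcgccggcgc
Canx: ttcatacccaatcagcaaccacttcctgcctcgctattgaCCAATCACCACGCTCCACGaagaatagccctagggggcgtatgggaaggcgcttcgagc
The matches began 65, 98 and 145 bases before the start of Hspa5, Pdia6 and Canx. Of the 5 genes that rose, Pdia6 held an ERSE and Herpud1 an ERSE-II, Sdf2l1 and Derl2 held neither in this window, and Manf was among the 4 genes whose promoter was not used here. Canx, with the same element, was lower in both mutant libraries.

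**Figure D2:**
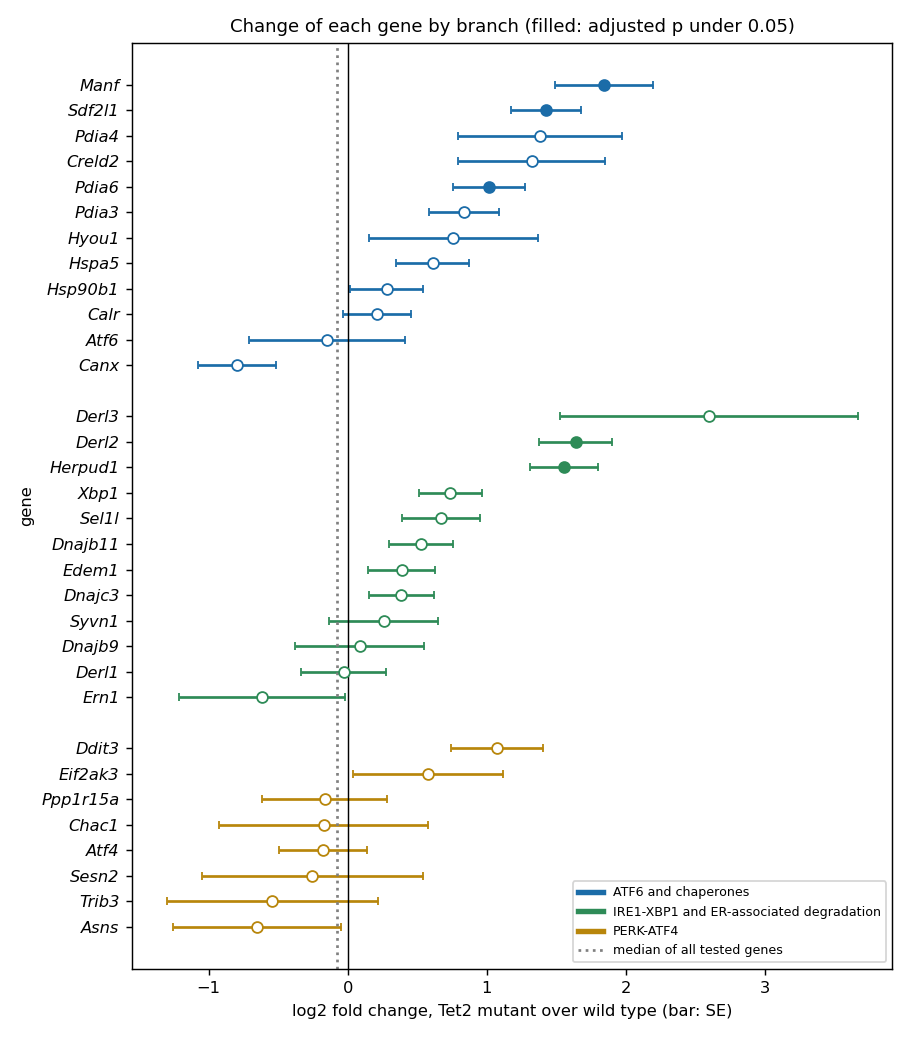
Mutant over wild type as a log2 fold change for each of the 32 genes, grouped by branch, with the SE as a bar and filled points for adjusted p under 0.05. The 5 filled points lie between 1.02 and 1.84 in the first and second branch, and the dotted line marks the median of all tested genes at -0.07.

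Genes that pull misfolded proteins out of the ER gave the other calls. Herpud1 (chromosome 8, 94386438 to 94395377, plus strand), a membrane protein that assembles the Hrd1 ubiquitin ligase complex, was at 216, 291 and 222 CPM in wild-type libraries versus 739 and 688 CPM in the mutant pair. The wild-type mean was 243 ± 41.5 CPM (SD, n = 3) and the mutant mean 713 ± 36.0 CPM (SD, n = 2), with a log2 fold change of 1.56 ± 0.25 (adjusted p = 0.0115). Derl2 (chromosome 11, 71007164 to 71019841, minus strand), one of the derlins that help substrates cross the membrane, went from 83.1, 101 and 98.0 CPM to 348 and 238 CPM (log2 fold change 1.64 ± 0.26, adjusted p = 0.0116). In both cases the mutant libraries lay at more than 2 times the highest wild-type library, and both calls were kept in all 13 alternatives. Its relatives Derl1 and Derl3 were not called. Derl1 stood at 134, 146 and 161 CPM in wild-type libraries versus 102 and 185 CPM in the mutant pair, around the wild type on both sides (adjusted p = 0.951). Derl3 was at 1.77, 6.41 and 2.89 CPM in wild-type libraries, at 2.38 CPM in Tet2 mutant replicate 2 and at 42.1 CPM in replicate 3 (log2 fold change 2.60 ± 1.07, adjusted p = 0.12), so that 1 library carried its difference.

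Xbp1, the factor spliced by IRE1, was at 326, 394 and 359.5 CPM in wild-type libraries versus 612 and 588 CPM in the mutant pair. With TMM the groups did not overlap, and the difference (log2 fold change 0.74 ± 0.23) fell short of the threshold (adjusted p = 0.0658). It passed with DESeq2 (adjusted p = 0.0465) and limma-voom (adjusted p = 0.042). The log2 fold change was 0.71 without Tet2 mutant replicate 2 and 0.76 without replicate 3. With total library size the groups overlapped and the log2 fold change was 0.22 (adjusted p = 0.454), and upper-quartile scaling and the replicate block gave an adjusted p of 0.164 and 0.486. The counts are per gene and do not separate spliced from unspliced Xbp1. Ern1, which encodes IRE1, was low and lay below every wild-type library in both mutants, at 7.49, 6.33 and 7.15 CPM against 3.25 and 5.81 CPM (adjusted p = 0.453).

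Sel1l, the adaptor of the Hrd1 complex, was at 75.1, 67.3 and 58.7 CPM in wild-type libraries versus 85.2 and 128 CPM in the mutant pair (adjusted p = 0.122). Syvn1, which encodes the Hrd1 ligase itself, overlapped between the groups, at 52.7, 40.2 and 36.2 CPM against 33.04 and 69.8 CPM (adjusted p = 0.637). Herpud1 thus rose, while Sel1l and Syvn1 of the same complex did not pass. Edem1, a lectin that directs glycoproteins to degradation, and the BiP co-chaperones Dnajb11 and Dnajc3 lay above the wild type in both mutants by small steps with TMM, and Edem1 and Dnajc3 turned negative with total library size (TMM log2 fold changes 0.39, 0.53 and 0.38, adjusted p = 0.257, 0.136 and 0.248). Dnajb9, the co-chaperone that restrains IRE1, was at 26.1, 20.7 and 17.9 CPM against 13.3 and 32.4 CPM (adjusted p = 0.901).

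The Herpud1 promoter is shown because it was the only one of the 28 that held elements of 2 branches. The stretch is chr8:94386277-94386427 on the plus strand, and the capitals mark first the ATF4 element, searched as TGATGNAA and here on the reverse strand, and then ERSE-II.
Herpud1: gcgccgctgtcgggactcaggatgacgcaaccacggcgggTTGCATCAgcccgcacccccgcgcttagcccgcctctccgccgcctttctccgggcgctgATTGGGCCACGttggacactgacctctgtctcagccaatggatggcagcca
The matches began 112 and 52 bases before the start of transcription. The ATF4 element occurred in 4 of the 28 promoters (14.3%, Asns, Chac1, Herpud1 and Trib3) and in 3.97% of all promoters.

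No gene of the PERK-ATF4 branch was called in either direction by edgeR or limma-voom, and DESeq2 called 1, Ddit3, which was also the 1 gene with an unadjusted p under 0.05. Ddit3, which encodes CHOP, the factor linked to cell death after long stress, was measured at 17.4, 23.6 and 27.9 CPM in wild-type libraries versus 45.9 and 50.6 CPM in the mutant pair (log2 fold change 1.07 ± 0.33, adjusted p = 0.0657). Both mutant libraries were above all wild-type libraries. The log2 fold change was 1.14 without Tet2 mutant replicate 2 and 0.99 without replicate 3. The difference passed with DESeq2 (adjusted p = 0.0228). It did not pass with total library size (log2 fold change 0.57, adjusted p = 0.228), upper-quartile scaling (adjusted p = 0.122) or the replicate block (adjusted p = 0.545). Atf4, the regulator upstream of it, is controlled mainly at translation. Its messenger was at 115, 162 and 192 CPM in wild-type libraries versus 167 and 110.2 CPM in the mutant pair (adjusted p = 0.695).

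The mutant libraries differed over 2-fold from each other in 11 of the 32 genes, with replicate 2 the higher in 4 and replicate 3 the higher in 7. The share of all tested genes that differed so was not counted, so the 11 cannot be read as a trait of this list. Over all tested genes log2 CPM correlated at 0.9065 between the mutant libraries, against 0.984 to 0.989 between wild-type libraries. The 4 genes higher in replicate 2 all belong to the PERK-ATF4 branch. Asns, which makes asparagine and is a standard ATF4 target, was at 123, 189 and 255 CPM in wild-type libraries, at 196 CPM in Tet2 mutant replicate 2 and at 44.5 CPM in replicate 3. Sesn2, which restrains growth signalling when leucine is short, was at 29.7, 18.2 and 22.9 CPM, then 35.8 and 4.01 CPM. Ppp1r15a, which encodes GADD34, the phosphatase subunit that lifts the block on translation, was at 387, 340.1 and 597 CPM, then 572 and 216 CPM. In each case, with TMM, replicate 3 lay below every wild-type library and replicate 2 within or above them. Replicate 2 was at 4.40 times replicate 3 for Asns, 8.94 times for Sesn2 and 2.65 times for Ppp1r15a. With total library size Asns lay just below every wild-type library in replicate 2 too (142 CPM, against 143 to 291 CPM). Eif2ak3, which encodes PERK, split in the same order, at 38.3, 23.8 and 22.4 CPM in wild-type libraries versus 65.1 and 19.3 CPM in the mutant pair. The adjusted p of Asns, Sesn2, Ppp1r15a and Eif2ak3 was 0.434, 0.827, 0.8 and 0.437.

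Without Tet2 mutant replicate 2, where the 1 mutant library left was taken to vary as wild-type libraries do, Asns and Sesn2 fell, Asns with a log2 fold change of -2.09 (adjusted p = 0.00885) and Sesn2 with one of -2.56 (adjusted p = 0.00241). Without replicate 3 their estimates were 0.05 and 0.59 (adjusted p = 0.932 and 0.164), and Eif2ak3 rose (1.20, adjusted p = 0.02955). Trib3, a pseudokinase induced by ATF4 and CHOP, and Chac1, which breaks down glutathione, were rare. Trib3 was at 2.67, 2.94 and 6.63 CPM in wild-type libraries versus 1.98 and 3.58 CPM in the mutant pair, and Chac1 at 4.22, 4.47 and 4.47 CPM against 1.58 and 6.13 CPM. Their levels in Tet2 mutant replicate 2 rest on 25 and 20 counts. Chac1 thus split the other way, with replicate 3 at 3.87 times replicate 2, and was called lower without replicate 3 (log2 fold change -1.47, adjusted p = 0.019).

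The Asns promoter is shown as the example of an ATF4 element close to the start, 23 bases before it. The stretch is chr6:7693185-7693272 on the minus strand, with the element in capitals.
Asns: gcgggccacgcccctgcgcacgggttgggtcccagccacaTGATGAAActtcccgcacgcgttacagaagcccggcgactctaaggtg
Asns, Chac1 and Trib3, which all held the element, had log2 fold changes of -0.65, -0.17 and -0.54, and the 4th holder, Herpud1, rose.

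The 7 genes with the higher value in Tet2 mutant replicate 3 were Derl3, Pdia4, Chac1, Atf6, Creld2, Dnajb9 and Syvn1. Pdia4, a large disulfide isomerase, was at 135, 158 and 162 CPM in wild-type libraries, at 124 CPM in replicate 2 and at 666 CPM in replicate 3 (log2 fold change 1.38 ± 0.59, adjusted p = 0.127). Creld2, a secreted isomerase-like protein, was at 56.3, 131 and 98.1 CPM, then 111 and 364 CPM (log2 fold change 1.32 ± 0.53, adjusted p = 0.112). Replicate 3 held 5.39 times as much Pdia4, 3.26 times as much Creld2 and 17.7 times as much Derl3 as replicate 2, where all 3 were within the wild-type range or below it. Without replicate 3 their estimates were -0.30, 0.22 and -0.64 (adjusted p = 0.313, 0.699 and 0.518). Atf6, Dnajb9 and Syvn1, at 3.68, 2.43 and 2.11 times as much in replicate 3, lay below every wild-type library in replicate 2 and above every one in replicate 3. Without replicate 3 the log2 fold change of Atf6 was -1.39.

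Marker sums of other cells also differed between the mutant libraries. The summed level of 14 plasma cell markers was 564, 3629 and 1106 CPM in wild-type libraries versus 3599 and 7969 CPM in Tet2 mutant replicates 2 and 3, and Jchain, the joining chain of secreted antibodies, ran from 136 to 1073 CPM in the wild type against 1769.5 and 2859 CPM. The 10 B cell markers summed to 1171 to 5231 CPM in wild-type libraries versus 6473 and 18625 CPM in the mutant pair, and the pancreatic acinar markers were likewise highest in replicate 3. None of these markers but Amy2a5, an acinar one, was at 0 in any library. Among the wild-type libraries, replicate 2 had the highest plasma cell sum and the most Creld2 and Derl3, while Pdia4 was highest in replicate 3 (162 CPM, against 158 CPM in replicate 2). Tet2 mutant replicate 2 came close to wild-type replicate 2 in its plasma cell sum, and held 2.38 CPM of Derl3 against 6.41 CPM. The 9 erythroid markers summed to 8328, 10952 and 20625 CPM in wild-type libraries versus 17173 and 2445 CPM in the mutant pair. This was the order of the 5 libraries in Asns, but not in Sesn2, Ppp1r15a or Eif2ak3, which split the same way. The summed neutrophil and promyelocyte markers were also lowest in Tet2 mutant replicate 3, while 8 of the 14 lay below every wild-type library in both mutants. The part of these cells in the differences was not tested.

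**Figure D3:**
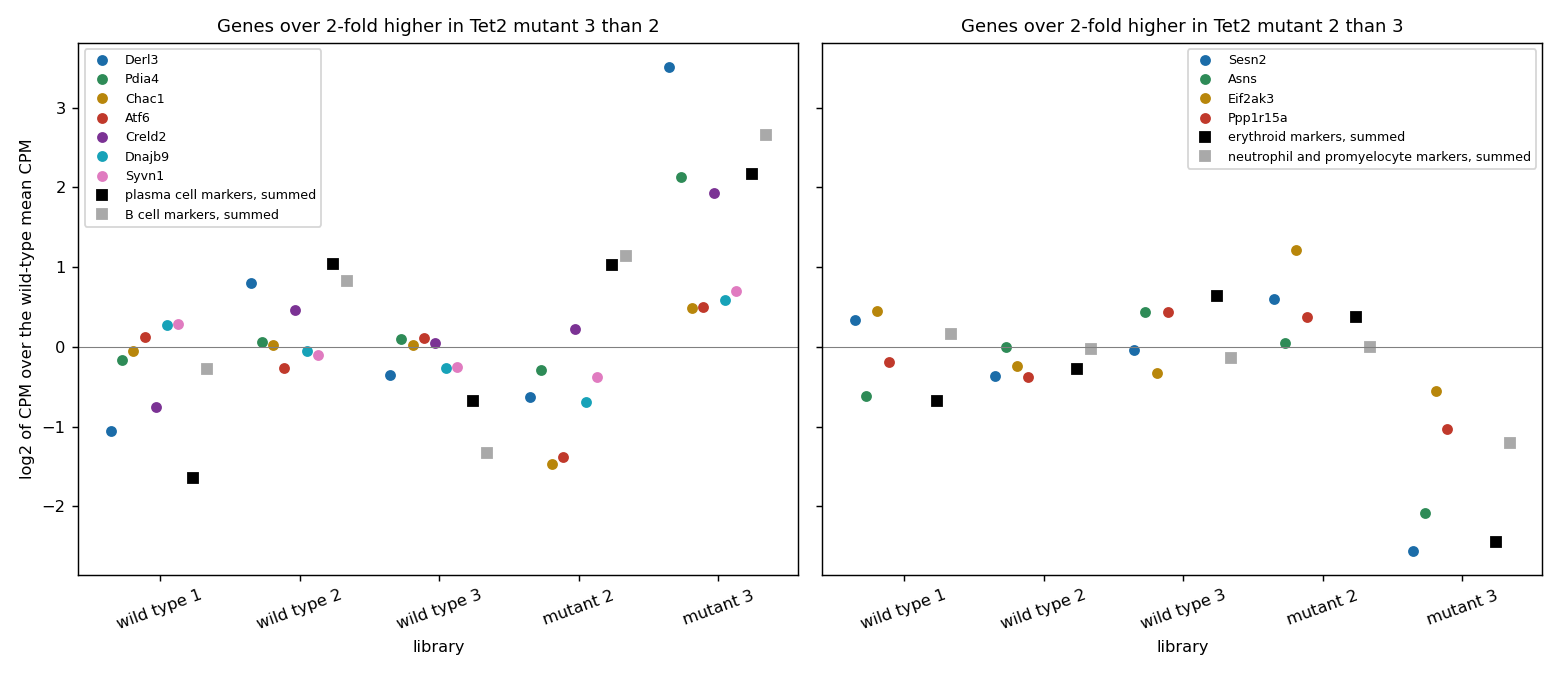
Level of the 11 genes that differed over 2-fold between the mutant libraries (circles) and of summed marker lists (squares) in each library, as the log2 of CPM over the wild-type mean. At left, 7 genes are higher in Tet2 mutant replicate 3, Derl3, Pdia4 and Creld2 by the most over the wild type, shown with the plasma cell and B cell markers. At right, 4 genes are lower there, shown with the erythroid and neutrophil markers.

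Further genes of the secretory pathway were taken in 5 lists. Of 30 genes of translocation and N-glycosylation, 8 rose (26.7%, against 10.6% of all tested genes) and none fell by edgeR. Their median was 0.43 on the log2 scale, and 12 had an unadjusted p under 0.05, a share near the 39.2% of all tested genes. DESeq2 and limma-voom called 9 and 8 of them higher and 0 lower. The signal peptidase subunits Sec11a, Spcs1 and Spcs2, which cut the signal sequence off entering proteins, rose by 1.72 ± 0.26, 1.59 ± 0.28 and 1.20 ± 0.25 on the log2 scale (adjusted p = 0.0099, 0.0158 and 0.0265). The call of Spcs2 was lost with upper-quartile scaling, total library size, the replicate block and each wild-type library left out (adjusted p = 0.05025 to 0.132). Dad1, a subunit of the oligosaccharyltransferase, was at 41.4, 63.5 and 65.7 CPM in wild-type libraries versus 319.7 and 162 CPM in the mutant pair (adjusted p = 0.0156). The count of this list fell to 3 higher and 2 lower with upper-quartile scaling or total library size, to 3, 4 and 3 higher without wild-type replicates 1, 2 and 3, and to 3 with the replicate block.

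Among 18 further genes of ER-associated degradation, 3 rose (16.7%, against 10.6% of all tested genes). They were Selenos, Selenok and the signal peptide peptidase gene H13 (log2 fold changes 2.05, 1.31 and 1.45, adjusted p = 0.00753, 0.0168 and 0.0151). Selenos, a selenoprotein that links the extraction machinery to the derlins, went from 96.2, 153 and 144 CPM to 616 and 472 CPM. Among 22 other folding genes 2 rose (9.09%), Ppib, an ER prolyl isomerase, and Cnpy2 (adjusted p = 0.0178 and 0.0455), with a list median of -0.09. The call of Cnpy2 was lost with upper-quartile scaling, total library size, the stricter filter, the replicate block and each wild-type library left out (adjusted p = 0.0509 to 0.438), and those of Ppib and Selenok with the block (adjusted p = 0.102 and 0.0843), Selenok also without wild-type replicate 1 (adjusted p = 0.0529). Among 18 measured sensors and transducers 2 rose (11.1%, near the 10.6% of all tested genes). Creb3, an ER-bound transcription factor processed like ATF6, rose from 72.3, 73.0 and 66.3 CPM to 327 and 262 CPM (adjusted p = 0.00338), as did the cell death gene Bax (adjusted p = 0.0352). The call of Bax was lost with upper-quartile scaling, total library size, the replicate block and each wild-type library left out (adjusted p = 0.053 to 0.283).

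Of 24 further ATF4 and CHOP targets 2 rose (8.33%), Nupr1 and Atf3, and 1 fell (4.17%), Atf5, shares at or below those of all tested genes (10.6% and 4.43%). The list median was 0.12. Nupr1, a small stress protein, was at 8.71, 13.004 and 18.3 CPM in wild-type libraries versus 180.2 and 169.9 CPM in the mutant pair (log2 fold change 3.71 ± 0.36, adjusted p = 0.00189). It is also known from stressed pancreatic acinar cells, whose markers were higher in the same libraries, and their part was not tested. Atf3, a stress factor induced by ATF4, was at 20.9, 13.9 and 22.8 CPM against 43.7 and 74.8 CPM (adjusted p = 0.0364), and its call was lost on leaving out any 1 wild-type library (adjusted p = 0.0719 to 0.106) and with upper-quartile scaling, total library size or the replicate block. Atf5 was near the detection limit, with 1 count in each mutant library, and its call was lost with the replicate block and on leaving out any wild-type library or Tet2 mutant replicate 3 (adjusted p = 0.0585 to 0.396). Lists of stress genes outside the ER gave 1 call each, Hspb1 among 12 cytosolic heat shock genes (8.33%) and Nr4a1 among 16 immediate early genes (6.25%), shares below that of all tested genes (adjusted p = 0.0158 and 0.0449). The call of Hspb1 was lost without wild-type replicate 1 (adjusted p = 0.0905), and that of Nr4a1 in 5 of 13 alternatives (adjusted p = 0.0536 to 0.1). Hspb1, a small heat shock protein, stood at 0.348, 0.358 and 1.01 CPM in wild-type libraries versus 6.97 and 106 CPM in the mutant pair. The summed immediate early genes were lower in Tet2 mutant replicate 3 (5220 CPM) than in any other library (8504 to 11780 CPM).

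The direction of small changes depended on how the libraries were scaled. With total library size in place of TMM the median log2 fold change of all tested genes moved from -0.07 to -0.58, and with upper-quartile scaling to -0.35. Over all genes 70.5% of the called genes were higher with TMM, 43.6% with upper-quartile scaling and 29.1% with total library size. The median of the 32 genes moved with it, to 0.15 with upper-quartile scaling and -0.07 with total library size. A change of scaling moves all genes by nearly the same amount. The distance from the median of all genes (0.50 to 0.53 under the 4 scalings) could therefore hardly change. Over all settings it ran from 0.34 (at least 1 CPM in 3 libraries) to 1.82 (no filter on low counts). By branch, the medians with total library size were 0.29 for ATF6 and chaperones, -0.0563 for IRE1-XBP1 and degradation, and -0.73 for PERK-ATF4. With total library size 15 of the 32 genes had a positive log2 fold change, against 22 with TMM, and Calr, Dnajb9, Dnajc3, Edem1, Eif2ak3, Hsp90b1 and Syvn1 turned negative. With it, both mutant libraries were above all wild-type libraries for 6 of the 32 genes (18.8%, against 14.1% of all tested genes) and below for 5 (15.6%, against 46.8%). The 5 genes below were Asns, Atf4, Calr, Canx and Ern1. Manf, Sdf2l1, Herpud1 and Derl2 rose and Canx fell both with upper-quartile scaling and with total library size, whereas with TMM the fall of Canx did not pass.

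**Figure D4:**
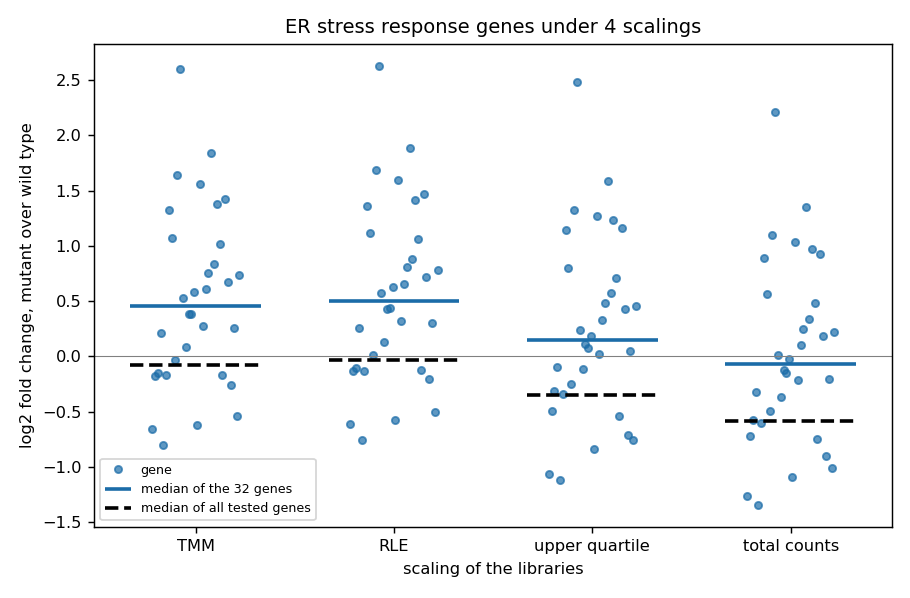
Log2 fold change of the 32 genes (points) under 4 ways of scaling the libraries, with their median (solid line) and the median of all tested genes (dashed line). Both medians move down together from TMM and RLE, the size factors of DESeq2, to total counts. The distance between them stays at 0.50 to 0.53, as a scaling moves all genes by nearly the same amount.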

How the data were processed

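The deposited values were raw counts per gene symbol from the authors, with each library in a file of its own. The submitters' processing notes name Trimmomatic, STAR and mm10, and the sources used here give no versions, read counter, annotation or strand setting. Per the labels' protocols libraries came from a SMARTer mRNA-Seq kit, with no molecular identifiers named, so errors cover counting and the spread between libraries only.

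Counts were analysed in R 4.3.3 with edgeR 4.0.16 (filterByExpr, TMM, quasi-likelihood F-test without covariates, Benjamini-Hochberg adjustment across the 17062 genes tested), with an adjusted p under 0.05 as the call. The SE is the absolute log2 fold change over the square root of F. An exact permutation test of 3 against 2 libraries cannot go below 0.1 and was not used. Alternatives were other scalings, filters, DESeq2 1.42.0, limma-voom (limma 3.58.1), the replicate block and each library left out. The test was tried on simulated counts.

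The genes and lists were chosen with earlier results of these data known. All 32 genes are named, with Tet2, up to 4 called genes per further pathway or stress list (up to 2 by smallest unadjusted p where none was called), and the first 3 markers per cell list where used, with the markers Amy2a5, Xist and Ddx3y named after their values were seen. A further 4 symbols of the pathway lists were matched through RefSeq synonyms (Ufd1, H13, Selenos and Selenok). Exon lengths and positions are those of the GENCODE M21 basic set (GRCm38). By it, exons of other genes cover 21.6% of the exon bases of Hsp90b1, 10% of Eif2ak3, 7.31% of Manf and 5.37% of Derl2, whose counts are therefore less certain. Of the cell marker lists, the monocyte, macrophage, conventional dendritic, plasmacytoid, T, B, plasma and acinar lists gave 3 of 8, 9 of 10, 5 of 9, 1 of 8, 5 of 8, 3 of 10, 3 of 14 and 16 of 17 genes higher, the monocyte list 1 lower, and the neutrophil and erythroid lists no call, with 4 of 14 and 1 of 9 at an unadjusted p under 0.05.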

Additional observations from a re-analysis of the deposited data

How the results depend on the processing

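Over the 13 alternatives Manf, Herpud1 and Derl2 kept their calls, Sdf2l1 kept it in 11 and Pdia6 in 7, and 13 of the 32 genes were called in none. The number of the 32 genes called higher was 5, and became 9 with no filter on low counts, 9 with DESeq2 and 3 with the replicate block. The number called lower was 0, and became 1 (Canx) with upper-quartile scaling, 1 with total library size and 1 with limma-voom. Of all genes, 2556 were called, against 4058 with total library size, 4557 with no filter, 5109 with DESeq2 and 984 with the replicate block. Leaving out 1 library at a time gave 3 to 12 of the 32 genes higher, 0 to 3 lower and 622 to 10862 calls over all genes. The lowest came without wild-type replicate 1, and the highest without Tet2 mutant replicate 2 (12 higher, and Asns, Canx and Sesn2 lower). Without Tet2 mutant replicate 3, 8 were higher and Atf6, Chac1 and Ern1 were lower. Where 1 mutant library is left, its spread was taken from the wild type.

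Small log2 fold changes turned sign with the scaling or tool. With total library size Calr was at -0.32, Dnajb9 at -0.37, Dnajc3 at -0.12, Edem1 at -0.15, Eif2ak3 at -0.0228, Hsp90b1 at -0.22 and Syvn1 at -0.20. With upper-quartile scaling Calr was at -0.0918 and Dnajb9 at -0.11. With RLE size factors, DESeq2 and limma-voom Derl1 was at 0.0124, 0.0125 and 0.031, and Tet2 at 0.0049, 0.0094 and 0.0545. With 1 library left out at a time, Asns ran from -2.09 to 0.0455, Atf4 from -0.51 to 0.12, Atf6 from -1.39 to 0.50, Chac1 from -1.47 to 0.48, Derl1 from -0.52 to 0.33, Derl3 from -0.64 to 3.54 and Dnajb9 from -0.70 to 0.585. Eif2ak3 ran from -0.55 to 1.20, Pdia4 from -0.30 to 2.13, Ppp1r15a from -1.03 to 0.37, Sesn2 from -2.56 to 0.59, Syvn1 from -0.39 to 0.70, Trib3 from -1.05 to 0.19 and Tet2 from -1.02 to 0.53. The cause was not tested.

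The replicate numbers 2 and 3 occur in both genotypes. Deviations of same-numbered libraries from their group means correlated at -0.10 and -0.11. With 2 mutant libraries these deviations mirror each other, so the correlations cannot show or exclude a shared batch. Nothing in the labels ties the numbers to a shared animal or day, and whether the samples share more than a number is not known. The precision is limited by the 2 mutant libraries and by the 17459808 counts of the smaller one. Both mutant libraries also held fewer genes with a count than any wild-type library. With this design that difference cannot be told apart from the genotype.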
